A study of Mus musculus with 9 samples.

Results

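Serum response factor (SRF) is a transcription factor of the actin cytoskeleton, and the 10 genes described here are Srf itself and 9 contractile and actin-binding genes widely known as its targets: Acta2, Tagln, Cnn1, Tpm1, Tpm2, Myl9, Vcl, Flna and Actn1. They were taken by name from what is known of SRF, with earlier results of these data known, and all 10 were present among the 24421 genes of the count table. Of the 10, 7 had enough reads to be tested, against 12575 of all genes. The 3 others, Acta2, Cnn1 and Myl9, had at most 18 reads in any library. Between 3D and 2D cultures, Flna, Vcl and Tpm2 were higher in 3D, Tpm1 was lower, and Srf, Actn1 and Tagln did not pass the test. With extra palmitate in 3D cultures, none of the 7 passed it.

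SRF binds a short A/T-rich DNA element called the CArG box. In one mode it acts with the myocardin-related factors MRTF-A and MRTF-B, which bind monomeric actin and enter the nucleus as actin assembles into filaments. In the other it acts with the ternary complex factors of the Elk family, which respond to MAP kinases and induce immediate early genes such as Fos. The first mode is linked to genes of stress fibers, focal adhesions and smooth muscle, and Acta2 and Tagln are commonly used as markers of myofibroblasts.

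The study cultured 4T1 cells, a mouse mammary carcinoma line, for 5 days. There were 3 libraries from 2D monolayers with 75 μM palmitate added, 3 from 3D spheroids with 75 μM palmitate added, and 3 from 3D spheroids with none added. In the study's methods 3D cultures grew on soft agar, all media contained serum, and cultures without extra fatty acid received the matching carrier. A 2D culture without palmitate was not analysed here, and nothing in the labels says whether libraries of one group came from separate cultures, so p-values measure the spread between these libraries, which may be technical. Total counts ranged from 6595514 to 31177756 per library, the smallest being replicate 3 of the 3D cultures with palmitate. The ribosomal precursor Rn45s took 1.77% to 5.38% of them. All 8 epithelial markers examined (Epcam, Cdh1, Cldn4 and 5 keratins) were expressed in every group, and their normalized counts summed to between 4253 and 5478 CPM (reads per 1000000 of the TMM-scaled library). In bulk RNA, fewer cells of a kind and less RNA per cell cannot be told apart.

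Promoter windows show where CArG boxes lie beside the members, and 9 of the 10 genes had a window in the RefSeq table (GRCm38.p6), with Tagln missing. A window holds 250 bases before and 50 after the start. An exact CArG box was found in 3 of the 9, which are Srf, Myl9 and Vcl. The upstream part of the Flna window (chrX:74246535-74246784, minus strand) lies inside the gene, which reaches to 74249820. The annotated 5′ end of Flna was therefore not searched. Over all 27025 genes with windows 1.81% had one, and among the other SRF pathway genes listed here it was 14 of 82. The windows were searched for the exact element only, whose form is the same on both strands, and a match is a description of these letters. The 250 upstream bases of the 3 genes are shown 5′ to 3′ on the gene's strand, with each CArG box in capitals. In Srf, the boxes begin 82 and 62 bases before the start (chr17:46556163-46556412, minus strand). In Myl9 the box begins 161 bases before it (chr2:156775214-156775463, plus strand), and in Vcl 227 bases before it (chr14:20929148-20929397, plus strand).
Srf: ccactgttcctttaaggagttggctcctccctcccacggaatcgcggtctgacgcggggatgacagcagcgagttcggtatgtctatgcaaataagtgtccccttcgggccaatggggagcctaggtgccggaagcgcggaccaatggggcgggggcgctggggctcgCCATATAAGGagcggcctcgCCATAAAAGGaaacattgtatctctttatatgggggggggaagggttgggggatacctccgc
Myl9: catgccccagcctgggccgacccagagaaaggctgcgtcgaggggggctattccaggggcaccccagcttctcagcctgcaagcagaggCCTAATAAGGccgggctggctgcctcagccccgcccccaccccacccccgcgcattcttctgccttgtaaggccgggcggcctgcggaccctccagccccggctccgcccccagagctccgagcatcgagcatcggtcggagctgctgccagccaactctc
Vcl: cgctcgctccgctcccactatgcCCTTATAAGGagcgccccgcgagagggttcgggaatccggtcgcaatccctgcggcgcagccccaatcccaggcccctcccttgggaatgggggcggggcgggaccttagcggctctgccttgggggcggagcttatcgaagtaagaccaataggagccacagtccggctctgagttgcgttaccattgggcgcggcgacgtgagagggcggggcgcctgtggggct

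The 3 genes with a box in the window had 3 different outcomes. Srf did not pass the test in either comparison, Vcl rose in 3D over 2D, and Myl9 was almost without reads.

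**Figure D1:**
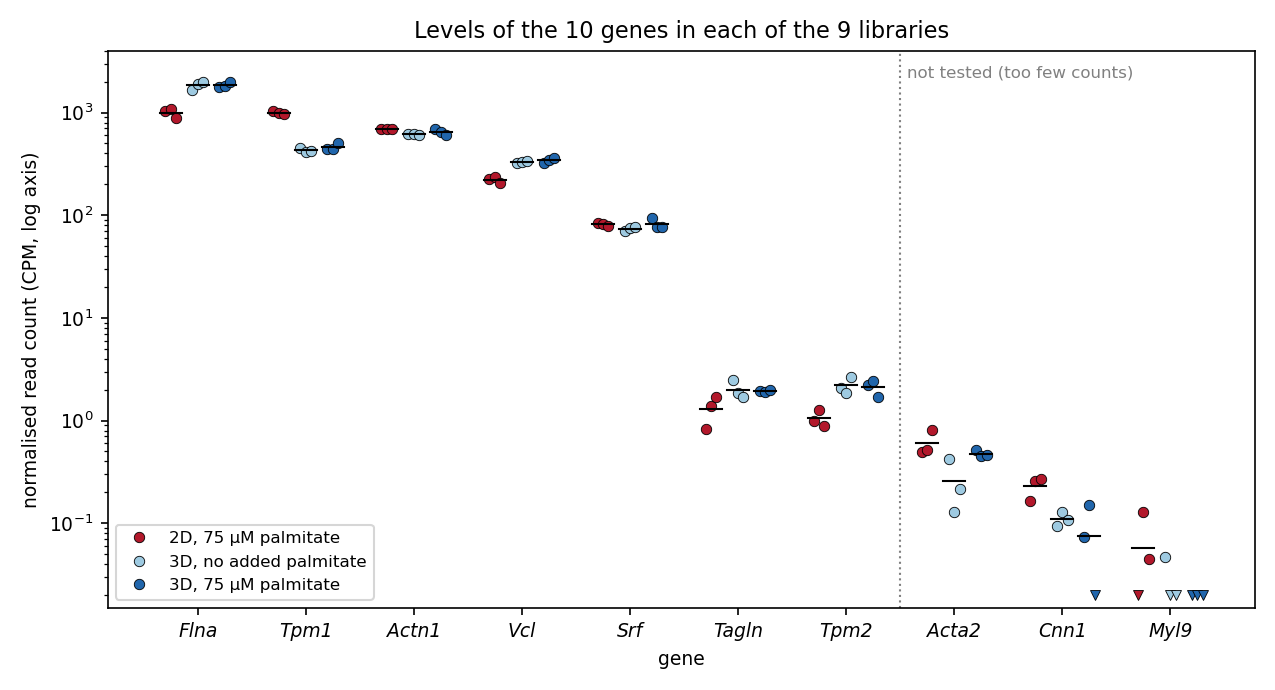
Normalized read count (CPM, log axis) of each of the 10 genes in each library, with points for single libraries, black lines for group means and triangles at the bottom for libraries with 0 reads. Flna, Vcl and Tpm2 sit higher and Tpm1 lower in both sets of 3D cultures than in 2D cultures, and the 3 genes right of the dotted line were too low to test.

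Levels of the members fell into a high and a low set. They were divided by the union of exons over all transcripts of a gene, in kilobases. This length can exceed that of the transcripts expressed, so the order between genes is approximate. The order in 2D cultures was Tpm1 at 154 ± 3.94 CPM per kb (SD, n = 3), Actn1 at 126 ± 0.230, Flna at 106 ± 10.1, Srf at 28.2 ± 1.01 and Vcl at 27.1 ± 1.70. The last 2 did not differ beyond their spread. Then came the low set, with Tagln at 0.654 ± 0.220, Tpm2 at 0.363 ± 0.0696, Acta2 at 0.275 ± 0.0783, Cnn1 at 0.0839 ± 0.0204 and Myl9 at 0.0495 ± 0.0560 CPM per kb. Here the neighbors Tpm2 and Acta2, and Cnn1 and Myl9, lay within each other's spread.

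In 3D cultures with palmitate the order of the high set was different. Flna came first at 199 ± 12.6 CPM per kb (SD, n = 3), followed by Actn1 at 116 ± 8.49, Tpm1 at 71.4 ± 5.30, Vcl at 41.9 ± 2.19 and Srf at 28.5 ± 3.45. In 3D cultures without extra palmitate the order was the same, with Flna at 196 ± 17.5, Actn1 at 111 ± 1.80, Tpm1 at 66.1 ± 2.90, Vcl at 40.1 ± 1.04 and Srf at 25.7 ± 1.12 CPM per kb. Thus Tpm1, first in 2D cultures by this measure, stood behind Flna and Actn1 in both 3D groups. Without division by length, Tpm1 and Flna were level in 2D cultures, at 997 ± 25.5 and 996 ± 94.9 CPM (SD, n = 3). The ratio of Flna to Tpm1 within a library, both per kilobase, was 0.690, 0.748 and 0.629 in 2D cultures, 2.77, 2.84 and 2.75 in 3D cultures with palmitate, and 2.55, 3.15 and 3.21 in those without. Every 3D library lay above every 2D library in this ratio, which does not depend on scaling between libraries and was chosen after its values were seen.

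The first question was how these genes differed between 3D and 2D cultures when both received palmitate. Over all genes tested, 68.3% were called at an adjusted p under 0.05, 34.5% higher and 33.9% lower in 3D. Among the 7 members tested, 4 were called, 3 of them higher and 1 lower. The median log2 fold change of the 7 was 0.50, against 0.01 over all genes. This median is the value of Tagln, a gene of few reads that was not called. In 6 of the 7, the 2D and 3D libraries did not overlap in normalized count, against 69.4% of all genes. The share of members called was thus near that of all genes.

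Srf codes for the transcription factor itself (chromosome 17, 46548329 to 46556175, GRCm38). Its level was 83.5, 82.8 and 78.2 CPM in the 2D libraries and 94.0, 77.0 and 76.4 CPM in the 3D libraries with palmitate. The groups overlapped, since 1 of the 3D libraries was above and 2 were below all 2D libraries. The change from 2D to 3D was 0.03 on the log2 scale (SE 0.0802, 95% interval -0.14 to 0.20, adjusted p = 0.754 in edgeR). Its sign turned to -0.09 without replicate 1 of the 3D cultures with palmitate. A difference within this interval was not detectable here.

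The contractile members of smooth muscle type were near the detection limit. Acta2, the smooth muscle α-actin, had 6, 16 and 18 reads in the 2D libraries, 14, 6 and 3 in 3D libraries with palmitate, and 9, 2 and 4 in those without. These counts correspond to 0.604 ± 0.172, 0.477 ± 0.0333 and 0.257 ± 0.152 CPM (SD, n = 3). The 2D and 3D libraries with palmitate overlapped.

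Cnn1, or calponin 1, which binds actin and myosin in smooth muscle, had between 0 and 8 reads per library. Its pooled rate in 2D cultures was 0.243 CPM (95% exact Poisson interval 0.139 to 0.395) and in 3D cultures with palmitate 0.0854 CPM (0.0233 to 0.219). All 3 of the 2D libraries, at 0.165, 0.256 and 0.267 CPM, were above those of 3D with palmitate, at 0.0736, 0.152 and 0 CPM. These intervals overlap, and they cover counting error only.

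Myl9, a regulatory light chain of smooth muscle and non-muscle myosin, had 0, 4 and 1 reads in 2D cultures, 1, 0 and 0 in 3D cultures without palmitate, and 0 in all 3 libraries with it. A count of 0 over these 3 libraries allows up to 0.0640 CPM, taken as 3 counts over the group, and the upper bound of the 95% exact Poisson interval was 0.0787 CPM. In a fit without the filter on low counts, none of the 3 genes was called between 3D and 2D, with adjusted p = 0.579 for Acta2, 0.167 for Cnn1 and 0.114 for Myl9 in edgeR.

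Tagln, or transgelin (SM22α), an actin-bundling protein of smooth muscle, had enough reads to test, unlike Acta2, Cnn1 and Myl9. It had 10 to 43 reads per 2D library and 13 to 53 per 3D library. Levels were 0.827, 1.38 and 1.69 CPM in 2D cultures and 1.95, 1.90 and 1.99 CPM in 3D cultures with palmitate. All 3 of the latter were above the former, yet the log2 fold change of 0.50 did not pass the test (SE 0.251, 95% interval -0.04 to 1.04, adjusted p = 0.0896 in edgeR). It passed without replicate 3 of the 2D cultures (0.69, adjusted p = 0.0451 in edgeR) and after correction for GC content and length (0.60, adjusted p = 0.0342 in edgeR). Exons of Pcsk7 and Gm48529 overlap Tagln on the opposite strand, and the strand setting of the counting is not given in the sources used here, so some of these few reads could belong to them.

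Markers of other contractile cells were mostly low as well. Of 8 smooth muscle and pericyte markers, 3 were tested (Mcam, Cspg4 and Notch3), and Myocd, the smooth muscle cofactor of SRF, had 0 reads in both groups with palmitate. The summed level of the 8 was 20.6 to 24.1 CPM in 2D cultures, 32.9 to 45.2 CPM in 3D with palmitate and 52.3 to 59.6 CPM in 3D without it. Mcam alone was at 18.2, 18.8 and 21.5 CPM in 2D cultures. Myh11, Lmod1, Des, Myocd and Rgs5 each averaged under 1 CPM in every group. Of 8 fibroblast markers, Lum and Col3a1 had 0 reads in every library, and the summed level was 33.2 to 34.6 CPM in 2D cultures and 91.8 to 111 CPM over both 3D groups, almost all of it from Pdgfra, while the other tested markers of that list, Col1a1 and Col1a2, were lower in 3D with palmitate than in 2D (log2 fold change -1.06 and -4.66, adjusted p = 0.0139 and 1.28e-05 in edgeR). The part of either list in the members' levels was not tested. Immune markers summed to 24.4 to 27.8 CPM in 2D and 7.16 to 11.4 CPM over both 3D groups, with 1 of 6 tested (Cd68), and endothelial markers summed to under 1 CPM in each group, with 0 of 5 tested.

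The tropomyosins, which coil along actin filaments and control access of myosin and other binding proteins, moved in opposite directions. Tpm1 lies on chromosome 9 from 67022590 to 67049406. Its level was 1026, 989 and 977 CPM in 2D cultures, and 441, 445 and 503 CPM in 3D cultures with palmitate. Every 3D library was far below every 2D library. Tpm1 was 2.16-fold lower in 3D, with a log2 fold change of -1.11 (SE 0.0654, adjusted p = 2.36e-09 in edgeR).

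Tpm2, on chromosome 4 from 43514711 to 43523765, had only 11 to 60 reads in a library. Its level was 0.992, 1.28 and 0.891 CPM in 2D and 2.21, 2.43 and 1.68 CPM in 3D cultures with palmitate, so that the groups did not overlap. It was 2.01-fold higher in 3D, with a log2 fold change of 1.00 (SE 0.239, 95% interval 0.49 to 1.52, adjusted p = 0.00177 in edgeR). The ratio of Tpm2 to Tpm1 per kilobase was between 0.00203 and 0.00289 in 2D libraries and between 0.00747 and 0.0122 in 3D libraries with palmitate. The difference in log2 ratio was 2.11 (exact permutation test, two-sided, p = 0.1, which is the lowest p for 3 libraries against 3, and 0.133 after adjustment over 4 ratios). Even so, Tpm1 remained the far more abundant of both in every library.

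The members that link actin filaments to adhesions or to each other also differed from one another. Flna codes for filamin A, which crosslinks actin filaments and tethers them to integrins and other membrane proteins. Its level was 1026, 1073 and 890 CPM in 2D cultures and 1772, 1831 and 2001 CPM in 3D cultures with palmitate. All 3D libraries were above all 2D libraries, by 1.87-fold (log2 fold change 0.91, SE 0.0827, adjusted p = 2.20e-07 in edgeR).

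Vcl codes for vinculin, which joins integrin and cadherin adhesions to actin. Its level was 223, 235 and 207 CPM in 2D and 324, 346 and 359 CPM in 3D cultures with palmitate, again without overlap. It was 1.54-fold higher in 3D (log2 fold change 0.63, SE 0.0654, adjusted p = 8.95e-07 in edgeR). After the same correction for GC content and length, both changes were smaller but still called, at 0.46 for Flna and 0.35 for Vcl on the log2 scale (adjusted p = 2.11e-06 and 1.30e-06 in edgeR), whereas Tpm1 stayed at -1.11 and Tpm2 at 1.03. Exons of Ap3m1 overlap Vcl on the opposite strand.

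Actn1, α-actinin 1, which crosslinks filaments in stress fibers and at adhesions, had a level of 695, 696 and 694 CPM in the 2D libraries. The coefficient of variation of 0.183% is below the counting error of 8403, 21729 and 15565 reads, so it understates the spread. In 3D cultures with palmitate it was 692, 642 and 598 CPM. The highest 3D library was just under the lowest 2D library, and the log2 fold change of -0.11 did not pass the test (SE 0.0611, 95% interval -0.24 to 0.02, adjusted p = 0.131 in edgeR). It passed without replicate 1 of the 3D cultures with palmitate (-0.16, adjusted p = 0.0252 in edgeR) and after GC and length correction (-0.22, adjusted p = 0.000253 in edgeR). The antisense gene models Gm47766 and Gm47767, overlap its exons.

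**Figure D2:**
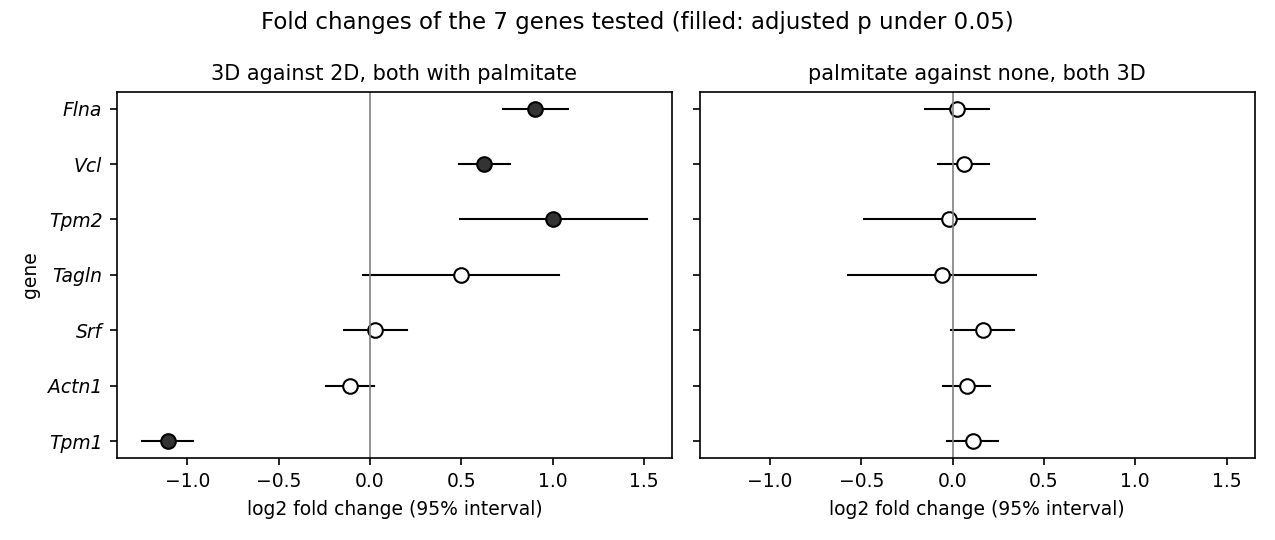
Log2 fold changes (points) with 95% intervals (lines) of the 7 members tested, for 3D over 2D cultures with palmitate on the left and for palmitate over none in 3D cultures on the right, filled where the adjusted p was under 0.05. On the left Flna, Vcl and Tpm2 lie above 0 and Tpm1 at -1.11, and on the right all 7 lie between -0.06 and 0.16.

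Next, 3D cultures with and without extra palmitate were compared. Over all genes tested, 2.19% were called, 1.38% higher and 0.811% lower with palmitate (173 and 102 genes, or 106 and 121 when scaled by library size only). Of the 7 members, 0 were called in edgeR or in DESeq2, and 0 had an unadjusted p under 0.05 in edgeR, where 2170 of the 12575 genes tested did, or 17.3%. The groups overlapped for all 7, whereas 18.6% of all genes had no overlap. The log2 fold changes ran from -0.06 to 0.16 with a median of 0.06, against 0.01 over all genes. The same 3D libraries with palmitate entered both comparisons.

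The well-measured members gave narrow bounds on any change with palmitate. Flna was at 1658, 1881 and 1980 CPM without extra palmitate, a range that overlapped the values with it, and its log2 fold change was 0.02 (95% interval -0.15 to 0.20, adjusted p = 0.929 in edgeR). Vcl was at 320, 329 and 337 CPM without it and changed by 0.06 on the log2 scale (95% interval -0.08 to 0.20, adjusted p = 0.686 in edgeR). Tpm1 was at 449, 412 and 425 CPM, with 0.11 (95% interval -0.03 to 0.25, adjusted p = 0.412 in edgeR). The upper bounds were below the size of the difference each gene showed between 3D and 2D cultures.

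Actn1 was at 619, 616 and 600 CPM without extra palmitate, and its log2 fold change was 0.08 (95% interval -0.05 to 0.21, adjusted p = 0.573 in edgeR). Srf was at 70.5, 75.8 and 76.4 CPM, with the largest value of the 7, 0.16 (SE 0.0806, 95% interval -0.01 to 0.34, adjusted p = 0.314 in edgeR). This value rested on replicate 1 of the cultures with palmitate, at 94.0 CPM, and was 0.05 without it. For the low genes the bounds were wide, with 95% intervals of -0.58 to 0.46 for Tagln and -0.48 to 0.45 for Tpm2, so that changes of this size were not detectable.

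Acta2 was the one untested member whose groups did not overlap in this comparison. The libraries without palmitate had 0.425, 0.129 and 0.217 CPM, all below those with it at 0.515, 0.456 and 0.459 CPM. These values stand for 2 to 14 reads each, and the pooled rates of 0.272 CPM (95% exact Poisson interval 0.152 to 0.449) and 0.491 CPM (0.311 to 0.736) overlapped. Without the filter on low counts its adjusted p was 0.566 in edgeR.

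The members were then set beside the closest relatives in their families. In each library the reads per kilobase were expressed as a share of the family. For Tagln, Acta2, Cnn1 and Myl9, the family was almost wholly supplied by other genes. Tagln made up 0.318% ± 0.0263 (SD, n = 3) of transgelin transcripts in 3D cultures with palmitate and 0.169% ± 0.0569 in 2D, the rest being Tagln2. Acta2 made up 0.0205% ± 0.00179 and 0.0195% ± 0.00479 of the 6 actins, in which Actb held 88.9% ± 0.556 in 3D with palmitate and 93.4% ± 0.415 in 2D. Cnn1 and Myl9 were each under 0.05% in every library, beside Cnn2 and Cnn3 for the calponins and Myl12a and Myl12b for the light chains. Actb and Actg1, and Myl12a and Myl12b, share near-identical sequence with each other or with pseudogenes, so their shares are uncertain.

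The abundant members held large shares of their families. Tpm1 made up 33.0% ± 0.571 (SD, n = 3) of the 4 tropomyosins in 2D cultures, 17.7% ± 0.639 in 3D with palmitate and 16.2% ± 0.888 in 3D without it. By this measure Tpm4 held the largest share, at 58.7% ± 0.564, 74.7% ± 1.08 and 76.2% ± 1.07 in the same order. The rank depends on the exon length used, 6485 bases for Tpm1 and 2203 for Tpm4. Without division by length, Tpm1 was above Tpm4 in 2D cultures (997 against 602 CPM) and below it in 3D with palmitate (463 against 668 CPM). The level of Tpm4 itself had a log2 fold change of 0.15 that did not pass the test (adjusted p = 0.105 in edgeR). Flna made up 62.3% ± 0.640 of the filamins in 2D and 73.6% ± 1.18 in 3D cultures with palmitate. Within the α-actinins, the log2 ratio of Actn1 to Actn4 was 0.59 ± 0.01 in 2D and 0.38 ± 0.04 in 3D with palmitate, without overlap (difference -0.21, two-sided exact permutation p = 0.1, 0.133 after adjustment). With against without palmitate in 3D, the 4 ratios had an exact permutation p of 0.3 to 0.8. The lowest p possible for 3 libraries against 3 is 0.1, so this test could not have called any of them.

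**Figure D3:**
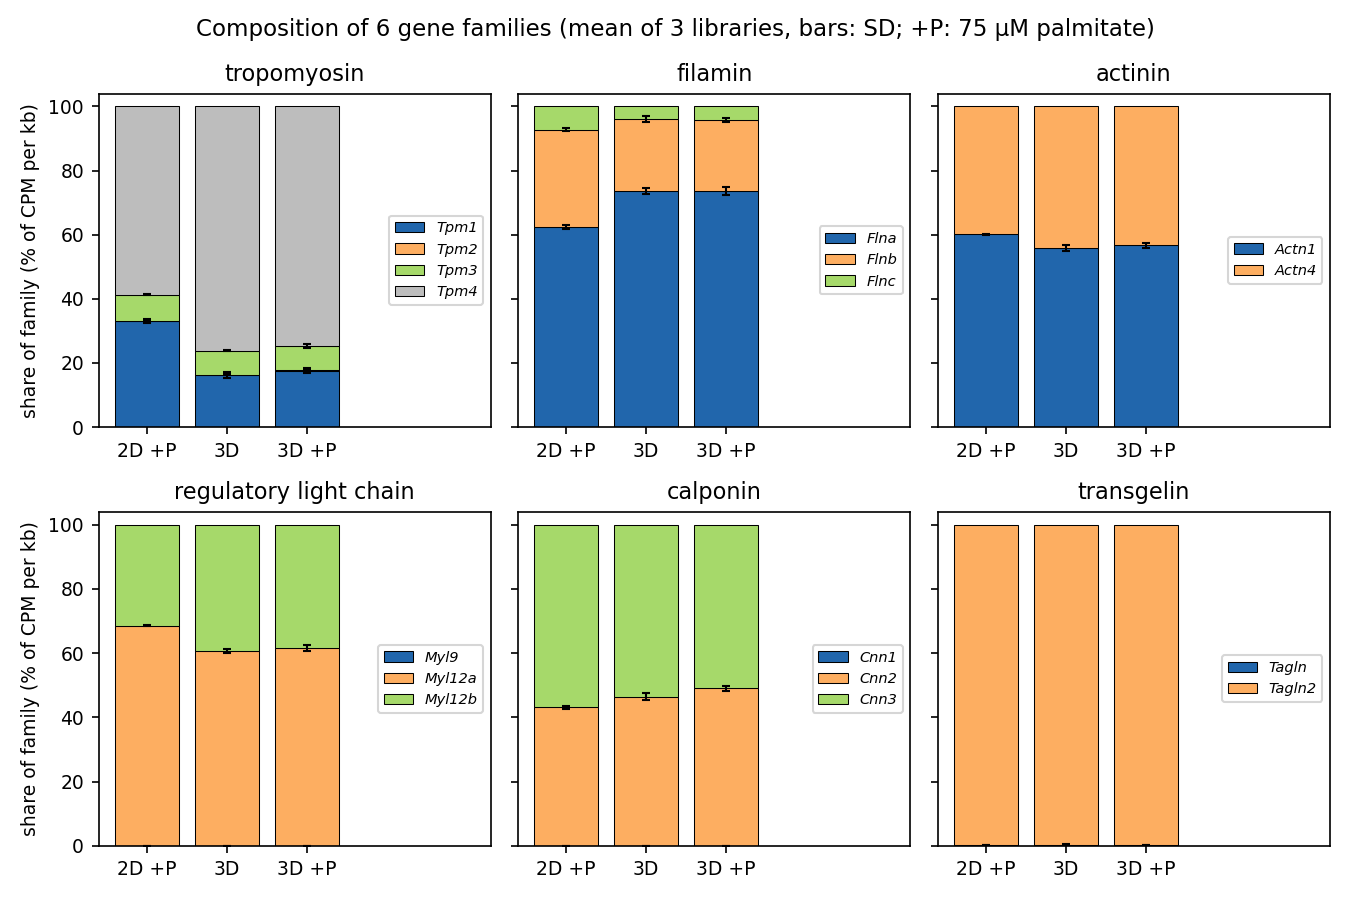
Mean share of each family member in CPM per kilobase (percent of the family, stacked bars from 0 to 100, error bars SD of 3 libraries) for 2D cultures with palmitate, 3D cultures and 3D cultures with palmitate. Tpm1 holds 33.0% in 2D and 17.7% in 3D with palmitate and Flna 62.3% and 73.6%, while Tagln, Cnn1, Myl9 and Tpm2 are too small to see.

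The rest of the SRF pathway was read from 5 lists, 96 genes in all without the members, of which 86 were tested. Between 3D and 2D cultures 59 were called, or 68.6%, with 33 higher and 26 lower and a median log2 fold change of 0.10. This was near the 68.3% of all genes. After GC and length correction the balance of directions turned, to 31 higher and 36 lower, as it did over all genes, with 3819 higher and 5184 lower. With palmitate 4 of the 86 were called (4.65%, against 2.19% of all genes), 3 higher and 1 lower, with a median of 0.04.

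Among other contractile genes, 2 of 15 tested were higher and 9 lower in 3D than in 2D, with a median log2 fold change of -0.32. The share called was 73.3%, against 68.3% of all genes. Several of the lower genes were non-muscle relatives of members, among them Myl12a at -0.88 (SE 0.0571, adjusted p = 6.35e-09 in edgeR) and Cnn3 at -0.63 (SE 0.0576, adjusted p = 2.39e-07 in edgeR). Cav1, the coat protein of caveolae, was at -0.94 (SE 0.0821, adjusted p = 1.43e-07 in edgeR). Mylk, the kinase that phosphorylates the regulatory light chains, went the other way at 1.49 (SE 0.0958, adjusted p = 5.80e-09 in edgeR). With palmitate 0 of the 15 were called in edgeR, and 1 had an unadjusted p under 0.05 (6.67%, against the 17.3% of all genes).

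Among actin and actin turnover genes, 6 of 17 were higher and 7 lower in 3D (76.5% called, against 68.3% of all genes). Actb, a cytoplasmic actin and itself an SRF target, was at 3372, 3461 and 3658 CPM in 2D and 2883, 2518 and 2226 CPM in 3D with palmitate, a log2 fold change of -0.46 (SE 0.0794, adjusted p = 0.000125 in edgeR). Actg1 was higher, at 0.36 (SE 0.0955, adjusted p = 0.00352 in edgeR), though the groups overlapped. Its level was 236, 260 and 240 CPM in 2D and 360, 327 and 258 CPM in 3D with palmitate. Cofilin 1 (Cfl1), which severs filaments, was at -0.67 and its helper Wdr1 at 0.66, while Cap1 was at 0.55 and Tmsb10 at -0.98 (adjusted p = 2.85e-07, 1.34e-07, 6.98e-07 and 2.29e-08 in edgeR). With palmitate 0 of the 17 were called in edgeR, and 2 had an unadjusted p under 0.05 (11.8%, again below the 17.3% of all genes). Actb and Actg1 passed with palmitate without replicate 3 of the treated cultures (0.26 and 0.31, adjusted p = 0.00956 and 0.00416 in edgeR). That fit called far more genes, 1095 higher and 806 lower, against 173 and 102 in the main fit.

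Among focal adhesion and stress fiber genes, 12 of 27 were higher and 9 lower in 3D (77.8% called, against 68.3% of all genes). On the log2 scale except where a fold is given, those with the smallest p were Synpo, which codes for the actin-associated synaptopodin, at 2.17, Svil, for supervillin, at 1.22, Nexn, for the actin-binding protein nexilin, at -1.93, and Lpp, a relative of zyxin, at 2.29-fold (adjusted p = 1.04e-11, 5.45e-09, 8.20e-09 and 1.01e-08 in edgeR). With palmitate 0 of the 27 were called in edgeR and 6 had an unadjusted p under 0.05 (22.2%, near the 17.3% of all genes). Svil, Nexn and Lpp passed without replicate 3 of the treated cultures (-0.35, -0.49 and -0.28), the same fit in which far more genes were called.

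Among the cofactors, both myocardin-related factors of the list were well expressed. Mkl1 (MRTF-A) was at 58.7, 59.8 and 57.4 CPM in 2D and 68.4, 59.0 and 51.6 CPM in 3D with palmitate, a change of 0.05 on the log2 scale (adjusted p = 0.633 in edgeR). After GC and length correction it was -0.15 and passed (adjusted p = 0.0171 in edgeR). Mkl2 (MRTF-B) was at 54.8, 59.2 and 48.6 CPM in 2D and 77.8, 80.4 and 83.5 CPM in 3D, without overlap, at 0.57 (SE 0.0809, adjusted p = 2.16e-05 in edgeR).

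Of the ternary complex factors, Elk4 was at 22.1, 21.6 and 13.1 CPM in 2D and 42.0, 53.2 and 59.4 CPM in 3D with palmitate, a log2 fold change of 1.43 (SE 0.166, adjusted p = 2.83e-06 in edgeR). Elk1 was at 0.14 and did not pass (adjusted p = 0.143 in edgeR). Elk3 was at 0.17 and did (adjusted p = 0.0203 in edgeR), but not after GC and length correction (0.00), nor in 4 of the 6 fits without 1 library. None of the 5 cofactors was called with palmitate.

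Lmo7 codes for an actin-associated LIM domain protein and was the one pathway gene called lower with palmitate. Its level was 179, 164 and 175 CPM in 3D cultures without palmitate and 129, 137 and 151 CPM with it, a log2 fold change of -0.32 (SE 0.0700, adjusted p = 0.0308 in edgeR). The call was lost in 5 of the 6 fits that left out 1 library, all but the one without replicate 3 of the treated cultures, where the adjusted p ranged from 0.0655 to 0.137 in edgeR.

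Immediate early SRF targets are mostly linked to the Elk cofactors. With palmitate, 3 of the 10 were called higher (30%, against 1.38% of all genes) and 0 lower. The list was chosen with earlier results of these data known. An unadjusted p under 0.05 in edgeR was reached by 8 of the 10 (80%, against 17.3% of all genes). Of these 8, 6 had higher and 2 lower levels. The latter were Egr2 (log2 fold change -0.30) and Egr3 (-0.24), which were not called (adjusted p = 0.273 and 0.172 in edgeR). Fos was at 9.07, 11.6 and 13.8 CPM without and 55.5, 27.3 and 37.1 CPM with palmitate in 3D cultures, a 3.58-fold difference (log2 fold change 1.84, SE 0.227, adjusted p = 0.000920 in edgeR). Fosb was at 7.42, 8.40 and 8.03 CPM without and 34.4, 19.9 and 15.2 CPM with it, at 1.64 (SE 0.223, adjusted p = 0.00174 in edgeR). In both genes replicate 1 of the treated cultures was the highest, as it was for Srf, and without it their changes were 1.46 and 1.18. Dusp5, a phosphatase of ERK, was at 0.58 (adjusted p = 0.0157 in edgeR), but lost its call without replicate 1 of the treated cultures (0.39, adjusted p = 0.0607 in edgeR) and without each of the 3 untreated libraries (adjusted p = 0.0526 to 0.0884).

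Between 3D and 2D cultures, both with palmitate, 6 of the 10 immediate early genes were higher and 0 lower. The share called was 60%, against 68.3% of all genes, of which 34.5% were higher and 33.9% lower. Egr3 was at 0.662, 1.06 and 1.16 CPM in 2D and 32.3, 28.2 and 28.8 CPM in 3D with palmitate, a log2 fold change of 4.88 (SE 0.136, adjusted p = 1.18e-12 in edgeR). Egr2 followed at 3.11, Fos at 2.88 and Fosb at 1.22 (adjusted p = 3.42e-09, 1.12e-07 and 0.000141 in edgeR). In 3D cultures without palmitate the means were 35.4 CPM for Egr3, 11.9 for Egr2, 11.5 for Fos and 7.95 for Fosb. Those of 2D cultures with palmitate were 0.959, 1.22, 5.78 and 10.7 CPM, so Fosb was not higher in untreated 3D cultures. Dusp5, also called higher, had means of 17.1 and 19.8 CPM in these groups. That pair of groups was not tested. Differences between the lists themselves were not tested.

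**Figure D4:**
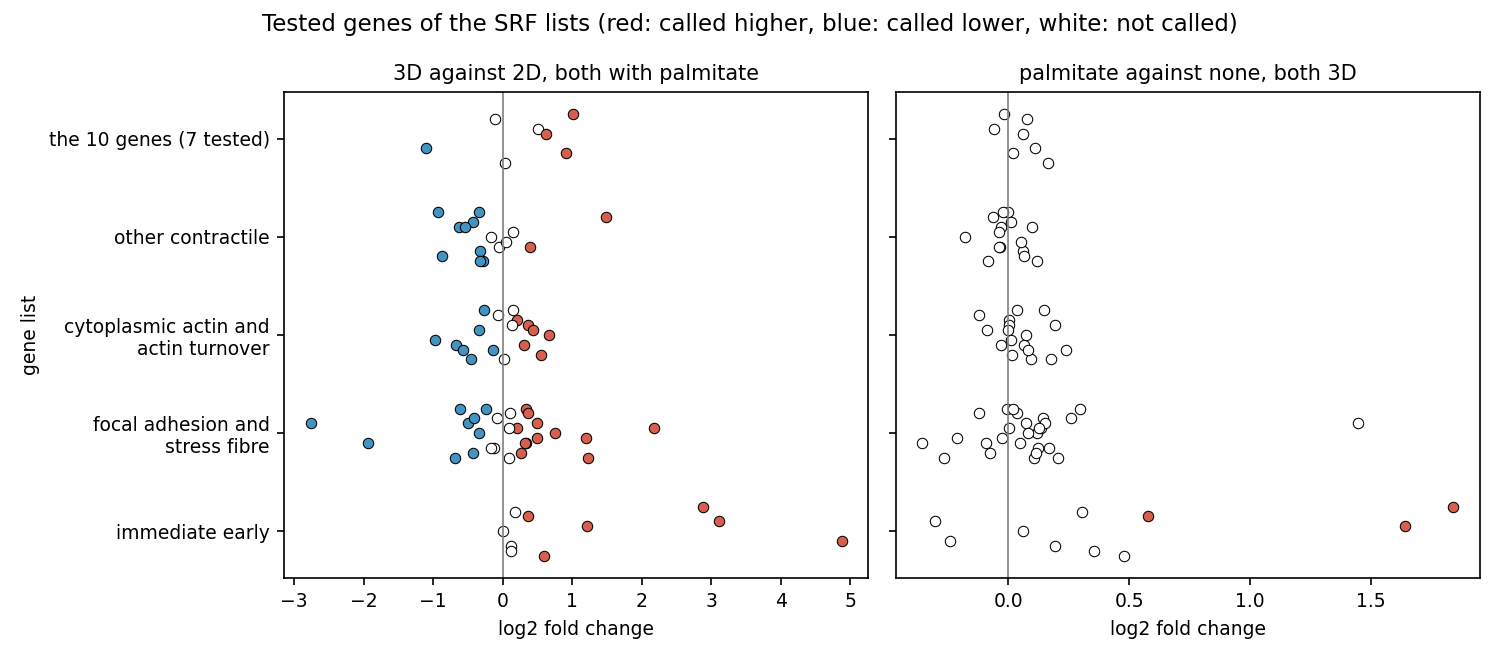
Log2 fold change of each tested gene in the members' list and 4 of the other SRF lists (rows), for 3D over 2D cultures with palmitate on the left and palmitate over none in 3D cultures on the right, with differently scaled axes. Red and blue points were called higher and lower, white points were not called. On the left the immediate early list holds no blue point, and on the right only Fos, Fosb and Dusp5 are colored.

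Finally, the members' profiles over the 9 libraries were compared with each other and with other genes, as a description without test, since the libraries share their conditions. Flna and Vcl were the most alike pair of members (Pearson r = 0.99 of log2 CPM), and both ran opposite to Tpm1 (r = -0.96 and -0.95). Srf was weakly related to Flna, Vcl, Tpm1 and Tpm2 (r between -0.25 and 0.26), and its highest correlation among members was with Actn1 (r = 0.70). The 3 other genes most like Srf were Arfgap3, Minpp1 and Epha2 (r = 0.96, 0.94 and 0.92). For Tagln they were Cited4, Slc12a5 and A430046D13Rik (r = 0.98, 0.96 and 0.96), where the few reads of Tagln limit the estimate.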

How the data were processed

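The deposited table holds counts of reads for each gene, which the authors left unnormalized. According to the study's methods, 50 bp single-end reads from KAPA stranded mRNA libraries were cleaned with fastq-mcf, mapped to GRCm38/mm10 with HISAT2 (2.1.0) and counted with HTSeq-count. The annotation used is not given in the sources used here. Groups and replicate numbers came from the sample labels. Counts were scaled by TMM and filtered by filterByExpr, and 1 quasi-likelihood model with condition as its only term was fitted to the 9 libraries in edgeR 4.0.16 (R 4.3.3), with Benjamini-Hochberg adjustment over all genes tested. SE is the log2 fold change divided by the root of F. CPM uses TMM library sizes, log2 CPM a prior count of 2. Exon lengths, as the union of exons over all transcripts of a gene, came from GENCODE M21, to which 24046 of 24421 genes matched. The procedure was tested on simulated data. The genes named beside the members were the 4 with the smallest p per list and comparison, the cofactors, Actb and Actg1, and the 3 most like Srf and Tagln. The counts of 1 pathway list and some of its genes are not reported here. Markers, families and overlapping genes are named outside this rule. The members, lists and alternatives were chosen with earlier results of these data known. Alternatives were RLE or library-size scaling, 2 other filters, only the groups compared, a replicate block, DESeq2 1.42.0, removal of GC and length trends by splines, Rn45s as covariate, and each library left out. No libraries of a group were identical: chi-square per gene was 3.90 to 19.7.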

Additional observations from a re-analysis of the deposited data

How the results depend on the processing

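The 4 members called between 3D and 2D cultures became 6 after GC and length correction (4 higher and 2 lower) and 5 without replicate 1 of the 3D cultures with palmitate or replicate 3 of the 2D cultures, and stayed 4 in the other alternatives. With palmitate 0 members were called in any alternative. Flna, Vcl, Tpm1 and Tpm2 kept direction and call in all 15 alternative fits between 3D and 2D. The 275 genes called with palmitate became 617 when no genes were filtered out, 77 when the fit held just the 6 libraries concerned, 924 after GC and length correction and 50 with Rn45s as a covariate. Leaving out 1 library gave 71 to 1901, the latter when replicate 3 of the palmitate-treated 3D cultures was dropped, while each of the other 5 libraries left out gave 148 or fewer. The 4 other pathway genes called with palmitate became 9, 2, 10 and 2 in the same order, and 2 to 24 with 1 library left out, the 24 again without that replicate. The cause was not tested. The log2 fold change of Mkl1 between 3D and 2D reversed to -0.15 after GC and length correction. With a replicate block 111 genes were called with palmitate, and Lmo7 lost its call (adjusted p = 0.0845). Deviations of same-numbered libraries correlated at -0.24 to 0.15, which gives no sign of pairing. Depth limits Acta2, Cnn1, Myl9, Tagln and Tpm2, with at most 60 reads in a library.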
